A study of Mus musculus with 8 samples.

Results

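CXC chemokine transcripts were examined in mouse pancreas by bulk RNA-Seq. The 10 genes *Cxcl1*, *Cxcl2*, *Cxcl5*, *Cxcl9*, *Cxcl10*, *Cxcl12*, *Cxcl13*, *Cxcl14*, *Cxcl16*, and *Cxcl17* were chosen by name among the 48709 genes of the deposited tables, and each name matched 1 gene. The study asked how PFKFB3, an enzyme that makes an activator of glycolysis, bears on severe acute pancreatitis caused by fatty acid ethyl esters (FAEE-SAP), which was induced with POA (palmitoleic acid) and ethanol. Pancreata were taken 24 hours after POA and ethanol or after normal saline from male mice aged 8 weeks, and each of the 4 groups had 2 libraries (WT saline, WT FAEE-SAP, cKO saline, and cKO FAEE-SAP).

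The cKO mice carried floxed *Pfkfb3* (*Pfkfb3* fl/fl) and Cre under the *Pdx1* promoter, which is active in the pancreatic lineage, so that acinar, duct, and islet cells are targeted and infiltrating leukocytes are not. The floxed line was founded in C57BL/6J, and its floxed region holds exons 2 and 3. WT mice carried neither the floxed alleles nor Cre, and the study bought its WT mice from a commercial supplier (Vital River). Effects of Cre or of the colony therefore cannot be told apart from the deletion. The sources speak of biological replicates without saying which mouse gave which library. The p-values rest on the spread between these libraries, which limma moderates with the spread of other genes of similar level. *Pfkfb3* itself spanned 1.69 to 3.21 scaled RPKM in the WT libraries and 0.880 to 2.82 in the cKO libraries, so its level per gene did not separate the genotypes, and genotype refers to the labels throughout.

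CXC chemokines are small secreted proteins that direct leukocytes through G protein-coupled receptors. *Cxcl1*, *Cxcl2*, and *Cxcl5* encode members with the ELR motif, which draw neutrophils through CXCR2 and are induced through NF-κB in many tissues, the inflamed pancreas included. CXCL9 and CXCL10 are induced by interferon and act on T and NK cells through CXCR3, CXCL12 acts through CXCR4 and ACKR3, CXCL13 draws B cells through CXCR5, CXCL16 is a membrane-bound ligand of CXCR6, and CXCL14 and CXCL17 are expressed by epithelia and have less settled receptors.

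Of these genes, 6 lie on chromosome 5 of GRCm38. *Cxcl5* (90759360 to 90761624), *Cxcl1* (90891241 to 90893115), and *Cxcl2* (90903871 to 90905938) stand in 1 cluster on the plus strand, with a gap of 10.8 kb between *Cxcl1* and *Cxcl2*. *Cxcl9* (92321347 to 92328079) and *Cxcl10* (92346638 to 92348889) lie 18.6 kb apart on the minus strand, and *Cxcl13* starts at 95956951. *Cxcl12* is on chromosome 6, *Cxcl17* on chromosome 7, *Cxcl16* on chromosome 11, and *Cxcl14* on chromosome 13.

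Promoters of 7 members were found in the RefSeq promoter table (GRCm38.p6) and searched over 250 bases before the RefSeq start, on both strands, for an NF-κB-like motif, GGG followed after any 3 bases by TTCC, and an interferon-response-like motif, GAAA followed after any 2 bases by GAAA. The first was in 3 of the 7 (*Cxcl1*, *Cxcl2*, and *Cxcl10*) and in 4.65% of 32851 promoters, and the second was in 2 of the 7 (*Cxcl10* and *Cxcl14*) and in 2.98%. *Cxcl5*, *Cxcl16*, and *Cxcl17* were not matched. The stretches with matches are shown because they set the pair of genes that differed between genotypes below (*Cxcl1* and *Cxcl2*) beside *Cxcl10*, which holds both motifs, and *Cxcl14*, which holds the second only. Each runs 5′ to 3′ along the gene and ends before the transcript annotated by GENCODE, and capitals mark the matches, which overlap where the motif is found on both strands:
Cxcl1, chr5:90891125-90891240, plus strand: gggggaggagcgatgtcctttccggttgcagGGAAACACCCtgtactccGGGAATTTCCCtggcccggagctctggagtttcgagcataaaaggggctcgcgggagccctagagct
Cxcl2, chr5:90903779-90903870, plus strand: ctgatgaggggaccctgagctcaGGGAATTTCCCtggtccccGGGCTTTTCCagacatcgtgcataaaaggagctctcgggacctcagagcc
Cxcl10, chr5:92348890-92349139, minus strand: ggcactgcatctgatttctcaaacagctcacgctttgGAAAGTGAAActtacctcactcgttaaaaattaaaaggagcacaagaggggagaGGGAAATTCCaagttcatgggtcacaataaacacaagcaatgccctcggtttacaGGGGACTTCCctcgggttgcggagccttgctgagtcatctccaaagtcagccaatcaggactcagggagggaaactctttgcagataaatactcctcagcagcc
Cxcl14, chr13:56296552-56296801, minus strand: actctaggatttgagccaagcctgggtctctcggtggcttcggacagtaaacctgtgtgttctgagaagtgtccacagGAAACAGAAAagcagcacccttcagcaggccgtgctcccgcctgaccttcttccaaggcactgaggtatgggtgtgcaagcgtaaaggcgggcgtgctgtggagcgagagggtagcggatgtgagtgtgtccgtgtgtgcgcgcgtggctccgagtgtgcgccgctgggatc

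*Cxcl1* and *Cxcl2* shared 14 bases over this motif, gggaatttccctgg, which begin 71 bases before the RefSeq start of *Cxcl1* and 97 bases before that of *Cxcl2*. In these 2 genes the RefSeq start lies downstream of the GENCODE start given above, where the printed stretch ends. *Cxcl10*, for which both sources give the same start, had matches of the NF-κB-like motif that begin 159 and 104 bases before it. A match describes the letters and not a bound site.

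The deposited unit is RPKM, in which the reads of a gene are divided by its exon length in kilobases and by the mapped reads of the library, as the authors computed it. Library totals worked out from the steps of the low values were 22.9 to 37.7 M reads, so that 1 read on 2 kb of exons equals 0.0133 to 0.0218 RPKM. Reads given below were worked out in the same way. RPKM is a share of the library, and as deposited the median log2 change of tested genes with FAEE-SAP was 1.24 in WT and 0.57 in cKO. Levels are therefore RPKM divided by a factor per library (the median ratio over genes), called scaled RPKM. Log2 changes were computed after 0.1 was added to scaled RPKM, so those of weakly expressed genes are understated. A gene was tested when it reached 0.5 RPKM as deposited, before scaling, in 2 or more libraries of a comparison. It passed at a Benjamini-Hochberg adjusted p under 0.05 in limma with at least a 2-fold change. The scale factors over all 8 libraries were 2.02 and 1.94 in WT FAEE-SAP, 1.05 and 0.975 in cKO FAEE-SAP, and 0.621 to 0.866 with saline. In scaled RPKM the level for a test was therefore lowest in WT FAEE-SAP, where several members were highest. Bulk values cannot tell more cells of a type from more RNA per cell. With 2 libraries against 2, an exact permutation test over libraries cannot go below p = 0.33 (two-sided), so every p here comes from limma. For the counts below at an unadjusted p under 0.05, the share of all genes tested was 27.7% in WT, 9.42% in cKO, 19.5% between genotypes with FAEE-SAP, 2.15% between them with saline, and 12.6% in the interaction. With at least a 2-fold change as well, these shares were 12.4%, 2.97%, 8.39%, 0.677%, and 7.02%, and 6, 1, 5, 0, and 5 members met both conditions.

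In WT pancreas, 6 of the 9 members tested rose with FAEE-SAP. The 6 were the neutrophil-attracting ligands *Cxcl1*, *Cxcl2*, and *Cxcl5*, the B cell attractant *Cxcl13*, and the epithelial chemokines *Cxcl14* and *Cxcl17*. Among all 10894 genes tested, 3.08% rose, 3.86% fell, and 6.93% changed in either direction. *Cxcl1*, *Cxcl2*, *Cxcl5*, *Cxcl14*, and *Cxcl17* reached the level for a test only through the WT FAEE-SAP libraries, so the filter partly set their direction and the count of 6, and *Cxcl13* reached it with saline as well. *Cxcl10* did not reach the level needed for a test. The libraries of these same 6 genes did not overlap between saline and FAEE-SAP, which held for 29.1% of 11133 genes in the upward direction. *Cxcl9*, *Cxcl12*, and *Cxcl16* did not pass, with adjusted p-values of 0.321, 0.647, and 0.520 (limma). With the genes of the full fit kept, 4 of the 6 passed without WT FAEE-SAP replicate 1 (all but *Cxcl1* and *Cxcl13*) and 0 without replicate 2, where the adjusted p was 0.0536 to 0.0908 (limma).

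*Cxcl1*, which encodes KC, was 0.152 and 0.0443 scaled RPKM in the WT saline libraries (3 and 1 reads) and 4.57 and 1.85 in WT FAEE-SAP (202 and 112 reads). *Cxcl1* in cKO was 0.134 and 0 scaled RPKM with saline and 0.254 and 0.209 with FAEE-SAP (7 and 6 reads). Both WT FAEE-SAP libraries stood far above the other 6, among which the highest value was 0.254. The log2 fold change in WT was 4.13 (SE 0.51, adjusted p = 0.0126, limma). It did not pass with reads worked out and tested by voom, a weighted fit in limma (adjusted p = 0.0559; range over the 11 settings other than left-out libraries 0.00125 to 0.0559). The reads given to voom used GENCODE's lengths, 1875 bases for *Cxcl1*, and not the 953 bases behind the reads printed here. Voom therefore took more *Cxcl1* reads than are printed.

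*Cxcl2*, which encodes MIP-2, had no read in either WT saline library and reached 1.21 and 2.40 scaled RPKM in WT FAEE-SAP (111 and 300 reads). Against a floor of 3 reads in each saline library, this was at least 26.2-fold higher. *Cxcl2* in cKO was 0.0864 and 0.0485 scaled RPKM with saline (4 and 2 reads) and 0.105 and 0.117 with FAEE-SAP (6 and 7 reads). Only the WT FAEE-SAP libraries were above 0.2 scaled RPKM, and the order of those 2 libraries was the opposite of that for *Cxcl1*. The fitted log2 fold change in WT was 4.48 (SE 0.38, adjusted p = 0.00451, limma), and it depends on the pseudocount because saline was at 0. Of the 50-base words of *Cxcl2* transcripts, 5.84% also occur in *Cxcl3*, so that a few reads could be shared between them.

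*Cxcl5*, which encodes LIX, was at 0 in both WT saline libraries and at 6.76 and 2.19 scaled RPKM in WT FAEE-SAP (585 and 259 reads), at least 61.3-fold higher by the same floor. In cKO it was 0 and 0.0257 with saline (0 and 1 reads) and 0.390 and 0.0712 with FAEE-SAP (21 and 4 reads). As with *Cxcl1*, WT FAEE-SAP replicate 1 was the highest library. *Cxcl5* had the largest fitted change of the 9 members tested, 5.62 (SE 0.53, adjusted p = 0.00576, limma).

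*Cxcl17*, a mucosal chemokine, had no read in any of the 4 saline libraries. With FAEE-SAP it reached 0.906 and 1.31 scaled RPKM in WT (32 and 63 reads) and 0.0455 and 0.218 in cKO (1 and 5 reads). The WT change was at least 6.19-fold against the floor, and the fitted log2 fold change was 3.87 (SE 0.31, adjusted p = 0.00392, limma). *Cxcl14* rose in WT from 0.637 and 0.440 to 3.80 and 6.34 scaled RPKM, or by 3.02 on the log2 scale (SE 0.33, adjusted p = 0.00876, limma). *Cxcl13* rose from 2.99 and 3.38 to 12.2 and 9.95 scaled RPKM, or by 1.76 (SE 0.20, adjusted p = 0.0106, limma). In each of these 3 genes the lower FAEE-SAP library of WT stood well above the higher saline library.

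**Figure D1:**
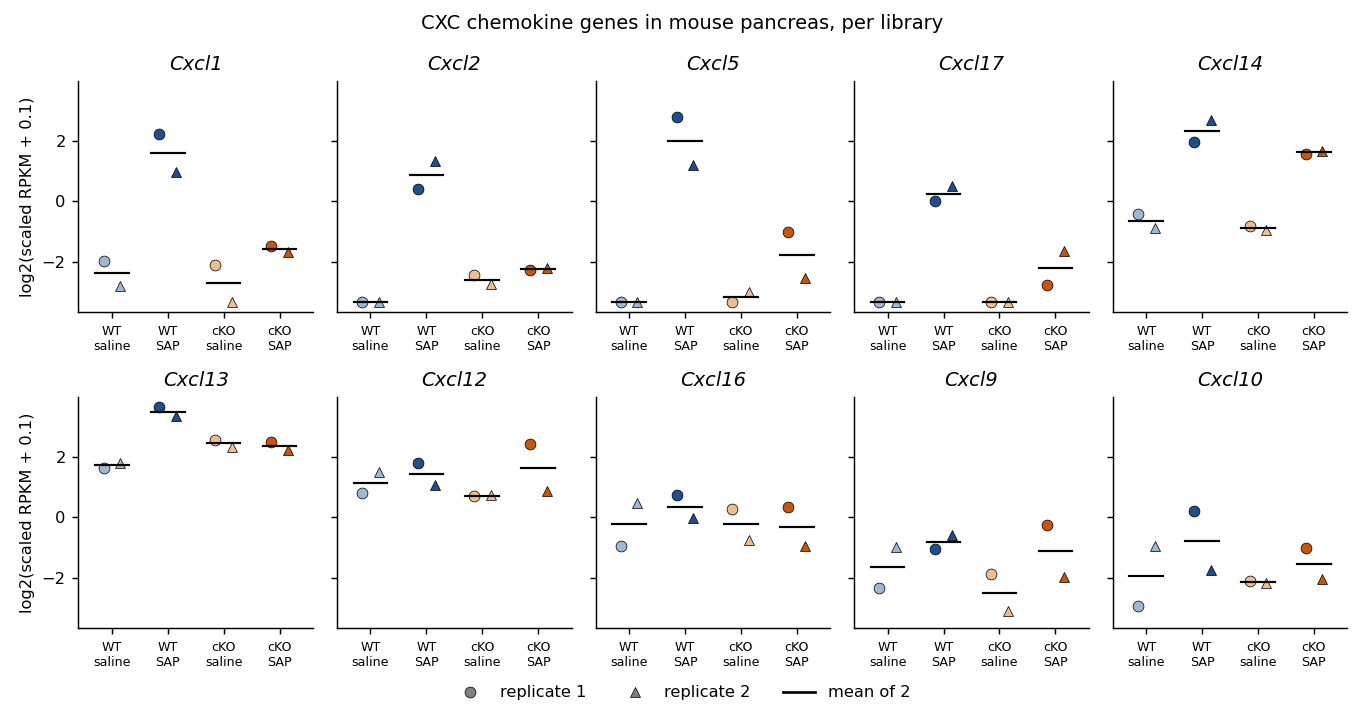
Level of the 10 CXC chemokine genes in each library, as log2(scaled RPKM + 0.1), for WT and cKO pancreas with saline or FAEE-SAP (SAP). Circles are replicate 1, triangles replicate 2, and lines the mean of 2; *Cxcl1*, *Cxcl2*, *Cxcl5*, and *Cxcl17* stand high in the WT FAEE-SAP libraries alone, *Cxcl14* stands high with FAEE-SAP in both genotypes, and *Cxcl9*, *Cxcl10*, and *Cxcl16* spread as widely within groups as between them.

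The remaining ligands varied within groups. *Cxcl12*, the stromal CXCR4 ligand, was 1.62 and 2.70 scaled RPKM in the WT mice given saline and 3.39 and 1.99 in those with FAEE-SAP, a log2 fold change of 0.29 with a 95% interval of -0.58 to 1.17. *Cxcl16* was 0.417 and 1.29 with saline and 1.55 and 0.883 with FAEE-SAP in WT. These groups overlapped in both genes.

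The interferon-inducible pair was low. *Cxcl9* went from 0.0963 and 0.406 scaled RPKM with saline to 0.386 and 0.570 with FAEE-SAP among WT libraries, and from 0.170 and 0.0159 to 0.735 and 0.154 among cKO libraries. *Cxcl10* went from 0.0301 and 0.420 (1 and 16 reads) to 1.04 and 0.196 among WT libraries, and from 0.133 and 0.119 to 0.388 and 0.144 among cKO libraries. In WT, saline and FAEE-SAP overlapped for both genes, and with no filter on low values *Cxcl10* had a log2 fold change of 1.25 in WT with a 95% interval of -1.24 to 3.73.

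In cKO pancreas, none of the 4 members tested passed with FAEE-SAP (limma; 0.0531% of all 9423 genes tested passed). At an unadjusted p under 0.05 there was 1, *Cxcl14*, where 9.42% of all genes were, and voom called 0. *Cxcl14* was 0.468 and 0.420 scaled RPKM with saline and 2.87 and 3.07 with FAEE-SAP, a change of 2.47 on the log2 scale (SE 0.17, 95% interval 2.02 to 2.93, adjusted p = 0.0705, limma; range over the 11 other settings 0.0185 to 0.272). It passed with all 8 libraries in 1 model (adjusted p = 0.0296, limma) and with replicate number as a block (0.0185). *Cxcl13* was 5.79 and 4.87 with saline and 5.42 and 4.55 with FAEE-SAP, a log2 fold change of -0.06 with a 95% interval of -0.60 to 0.47 (0.54 as deposited, where the median gene rose by 0.57). *Cxcl12* and *Cxcl16* had log2 fold changes of 0.94 and -0.05, and *Cxcl12* was 1.52 and 1.54 with saline and 5.23 and 1.70 with FAEE-SAP. *Cxcl16* was 1.12 and 0.491 with saline and 1.15 and 0.417 with FAEE-SAP, so its groups overlapped.

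The other 6 members did not reach the level for a test in cKO. With no filter on low values their log2 fold changes were 1.0 for *Cxcl1*, 0.32 for *Cxcl2*, 1.23 for *Cxcl5*, 0.96 for *Cxcl17*, 1.29 for *Cxcl9*, and 0.59 for *Cxcl10*, with adjusted p-values of 0.682 to 0.775 (limma). The FAEE-SAP libraries lay above both saline libraries for 7 of the 10 members, which held for 20.2% of all genes, and 5 of the 7 (*Cxcl1*, *Cxcl2*, *Cxcl5*, *Cxcl10*, and *Cxcl17*) rested on fewer than 25 reads in every cKO library.

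With FAEE-SAP, *Cxcl1* and *Cxcl2* were lower in cKO than in WT, and these were the 2 of 9 members tested that passed, where 0.409% of all 11008 genes tested were lower, 0.863% higher, and 1.27% changed in either direction. *Cxcl1*, *Cxcl2*, *Cxcl5*, and *Cxcl17* reached the level for this test only through the WT libraries, so their direction was partly set by the filter here too. The log2 fold change was -3.32 for *Cxcl1* (SE 0.44, adjusted p = 0.0377, limma) and -3.30 for *Cxcl2* (SE 0.38, adjusted p = 0.0267, limma). Mean scaled RPKM was 13.9-fold lower for *Cxcl1* and 16.2-fold lower for *Cxcl2*. Neither passed with no filter on low values, with a pseudocount of 1, or with voom, and *Cxcl1* also did not pass with quantile normalization or without the intensity trend. Across the 11 settings other than left-out libraries, the adjusted p ranged from 0.00977 to 0.143 for *Cxcl1* and from 0.00977 to 0.127 for *Cxcl2* (limma), and both stayed lower in cKO in each of them. Without WT FAEE-SAP replicate 1 or replicate 2 neither passed, and with the genes of the full fit kept the adjusted p was 0.138 and 0.139 for *Cxcl1* and 0.118 and 0.244 for *Cxcl2*. Without cKO FAEE-SAP replicate 1, *Cxcl1* had an adjusted p of 0.0531, and *Cxcl2* had one of 0.0536 with the genes of the full fit kept. Without cKO FAEE-SAP replicate 2, *Cxcl1* had an adjusted p of 0.068 (limma).

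*Cxcl5*, *Cxcl13*, and *Cxcl17* missed the threshold in the same comparison. Their log2 fold changes were -3.95 (SE 0.71, adjusted p = 0.0779, limma), -1.15 (SE 0.21, adjusted p = 0.0797), and -2.67 (SE 0.50, adjusted p = 0.0808). Both cKO libraries lay below both WT libraries for each of them, and for *Cxcl1*, *Cxcl2*, and *Cxcl14*, which made 6 of 10 members where 25.1% of all genes did so. With all 8 libraries in 1 model, or with replicate number as a block, these 3 passed together with *Cxcl1* and *Cxcl2*, which made 5.

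With FAEE-SAP, the cKO libraries had 2.87 and 3.07 scaled RPKM of *Cxcl14*, below the 3.80 and 6.34 of the WT libraries. Its log2 fold change of -0.72 (95% interval -1.45 to 0.00, adjusted p = 0.258, limma) was smaller in size than that of the 5 genes above. *Cxcl9*, *Cxcl12*, and *Cxcl16* had log2 fold changes of -0.36, 0.19, and -0.70, and their 95% intervals all held 0 (-1.87 to 1.16, -1.15 to 1.53, and -1.92 to 0.52).

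**Figure D2:**
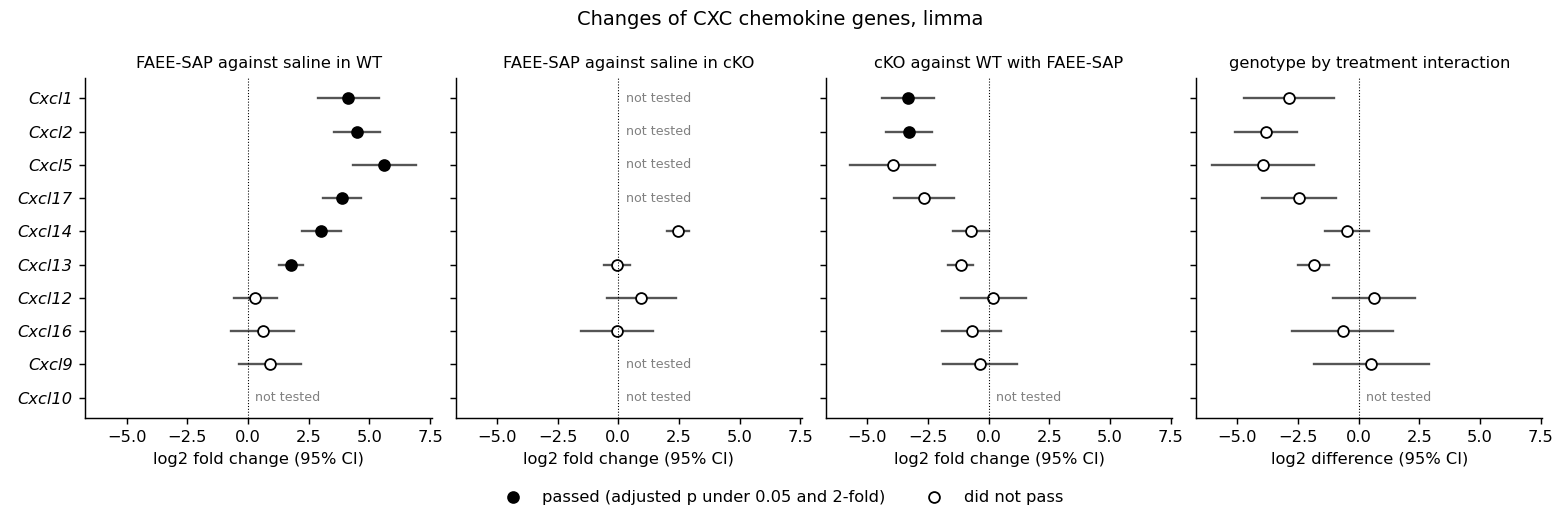
Log2 fold change of each member with its 95% confidence interval from limma, for FAEE-SAP against saline in each genotype, cKO against WT with FAEE-SAP, and the interaction of genotype and treatment. Filled points passed the test; 6 members passed in WT, 0 in cKO, 2 between genotypes with FAEE-SAP, and 0 in the interaction, and members below the level for a test are marked.

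The difference between genotypes in the response to FAEE-SAP was tested as the interaction over all 8 libraries. None of the 9 members tested passed it (limma; 0.0719% of 11133 genes passed), 5 had an unadjusted p under 0.05 with at least a 2-fold difference, where 7.02% of all genes did, and voom called 0. *Cxcl1*, *Cxcl2*, *Cxcl5*, and *Cxcl17* reached the level for this test only through the WT FAEE-SAP libraries, so the filter partly set the sign of 4 of these 5. The 5 were *Cxcl2* (-3.83, SE 0.55, adjusted p = 0.0745, limma), *Cxcl13* (-1.86, SE 0.27, adjusted p = 0.0765), *Cxcl5* (-3.94, SE 0.90, adjusted p = 0.201), *Cxcl17* (-2.47, SE 0.65, adjusted p = 0.246), and *Cxcl1* (-2.87, SE 0.79, adjusted p = 0.263). *Cxcl2* passed with quantile normalization (adjusted p = 0.0458). The interaction for *Cxcl14* was -0.49 with a 95% interval of -1.41 to 0.42, and that for *Cxcl12* was 0.63 (-1.07 to 2.32).

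With saline, none of the 3 members tested passed between genotypes (limma; 0 of 8715 genes passed, or 0.0%, 187 had an unadjusted p under 0.05, and voom called 0). *Cxcl13* was the 1 of these 3 with an unadjusted p under 0.05, at 5.79 and 4.87 scaled RPKM in cKO saline and 2.99 and 3.38 in WT saline, without overlap (log2 fold change 0.69, SE 0.18, 95% interval 0.22 to 1.16, adjusted p = 0.999, limma). *Cxcl2* was also higher in both cKO saline libraries, on 4 and 2 reads against 0. With no filter on low values its log2 fold change was 0.56 (95% interval 0.15 to 0.97, unadjusted p = 0.0180, adjusted p = 0.998, limma). *Cxcl12* was lower in both cKO saline libraries (log2 fold change -0.44, 95% interval -1.17 to 0.28). Higher values in both cKO libraries held for 15.6% of all genes and lower values for 13.6%.

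The range of *Cxcl13* was 2.99 to 3.38 scaled RPKM in WT saline, 4.55 to 5.79 over the 4 cKO libraries, and 9.95 to 12.2 in WT FAEE-SAP. These ranges do not overlap, but neither difference between genotypes passed (adjusted p = 0.999 with saline and 0.0797 with FAEE-SAP, limma), and such separation held for 15.6% and 25.1% of all genes. The cKO libraries with saline and with FAEE-SAP overlapped each other.

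Levels per kilobase were ordered within each group. *Cxcl13* had the highest mean in all 4 groups, and *Cxcl12* was next in WT saline, cKO saline, and cKO FAEE-SAP, where the libraries of these 2 genes overlapped in cKO FAEE-SAP only. In WT FAEE-SAP the order was *Cxcl13*, *Cxcl14*, *Cxcl5*, *Cxcl1*, *Cxcl12*, and *Cxcl2*, and from *Cxcl14* downward neighboring genes overlapped. In both saline groups *Cxcl5*, *Cxcl17*, and *Cxcl1* or *Cxcl2* stood at the bottom, at 0 to 3 reads per library apart from 4 for *Cxcl2*. The lengths behind these RPKM are the authors', and the values fit 953 bases for *Cxcl1* where GENCODE lists 1875 exonic bases.

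The other CXC ligand genes were read beside the members. *Cxcl3*, which lies between *Cxcl5* and *Cxcl1* and encodes another CXCR2 ligand, went from 0 in both saline libraries to 0.636 and 1.88 scaled RPKM with FAEE-SAP in WT, and from 0.0420 and 0 to 0.443 and 0.522 in cKO. It rose in WT (at least 9.40-fold against the floor, fitted log2 fold change 3.88, adjusted p = 0.0146, limma), where it reached the level for a test only through the FAEE-SAP libraries, so its direction was set by the filter. Its difference between genotypes with FAEE-SAP was -1.1 (adjusted p = 0.298, limma). In cKO FAEE-SAP *Cxcl3* thus stood above *Cxcl1* and *Cxcl2*, at 13 and 16 reads. *Cxcl11* and *Cxcl15* had at most 2 reads in any library.

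*Ppbp* and *Pf4*, platelet genes of the same cluster on chromosome 5, had their highest values in cKO FAEE-SAP. With FAEE-SAP, the WT libraries had 0.378 and 0.772 scaled RPKM of *Ppbp* and the cKO libraries 2.81 and 1.65, against at most 0.0788 with saline. For *Pf4* these were 3.38 and 6.57 among WT libraries and 10.5 and 9.98 among cKO libraries, against 1.01 to 4.08 with saline. *Ppbp* rose in WT (log2 fold change 2.35, adjusted p = 0.0273, limma) and was tested there only because of the FAEE-SAP libraries, so that the filter set its direction. Neither gene passed between genotypes with FAEE-SAP (1.85, adjusted p = 0.110 for *Ppbp*, and 1.1, adjusted p = 0.177 for *Pf4*). The direction of these differences was opposite to that of *Cxcl5*, *Cxcl1*, and *Cxcl2* on both sides of them in the cluster. Both genes are among the 5 platelet markers, which summed to 1.36 to 2.18 scaled RPKM in WT saline, 1.86 to 4.35 in cKO saline, 4.31 to 7.83 in WT FAEE-SAP, and 12.2 to 14.8 in cKO with FAEE-SAP. *Pf4* and *Ppbp* themselves make up most of these sums, which are therefore no separate measure. *Itga2b*, the other platelet marker tested in WT, had a log2 fold change of 0.50 there (adjusted p = 0.343, limma). *Gp9* was at 0 in both saline groups, and the part of platelets in these values was not tested.

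Among the receptors, 5 of 10 were tested in WT and 1 rose, where 3.08% of all genes did. *Cxcr2*, the receptor of the ELR chemokines, went from 0.0476 and 0.0970 scaled RPKM with saline to 0.813 and 0.792 with FAEE-SAP in WT, and from 0.154 and 0.110 to 0.693 and 0.381 in cKO. It rose in WT (log2 fold change 2.55, adjusted p = 0.0113, limma), where it too reached the level for a test only through the FAEE-SAP libraries, and it differed by -0.58 (adjusted p = 0.392) between genotypes with FAEE-SAP. *Ackr1*, an endothelial scavenger and carrier of CXC ligands, and *Ackr3*, which binds CXCL12, had log2 fold changes of 1.26 (adjusted p = 0.0528) and 1.01 (adjusted p = 0.129) in WT. *Cxcr4* and *Cxcr5* had changes of -0.12 and -0.51 in WT that did not pass. *Cxcr1*, *Cxcr3*, *Cxcr6*, *Ackr2*, and *Ackr4* were not tested and stayed at or below 0.402 scaled RPKM in every library, and 0 of the 5 receptors tested passed between genotypes with FAEE-SAP (limma; 0 also at an unadjusted p under 0.05).

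**Figure D3:**
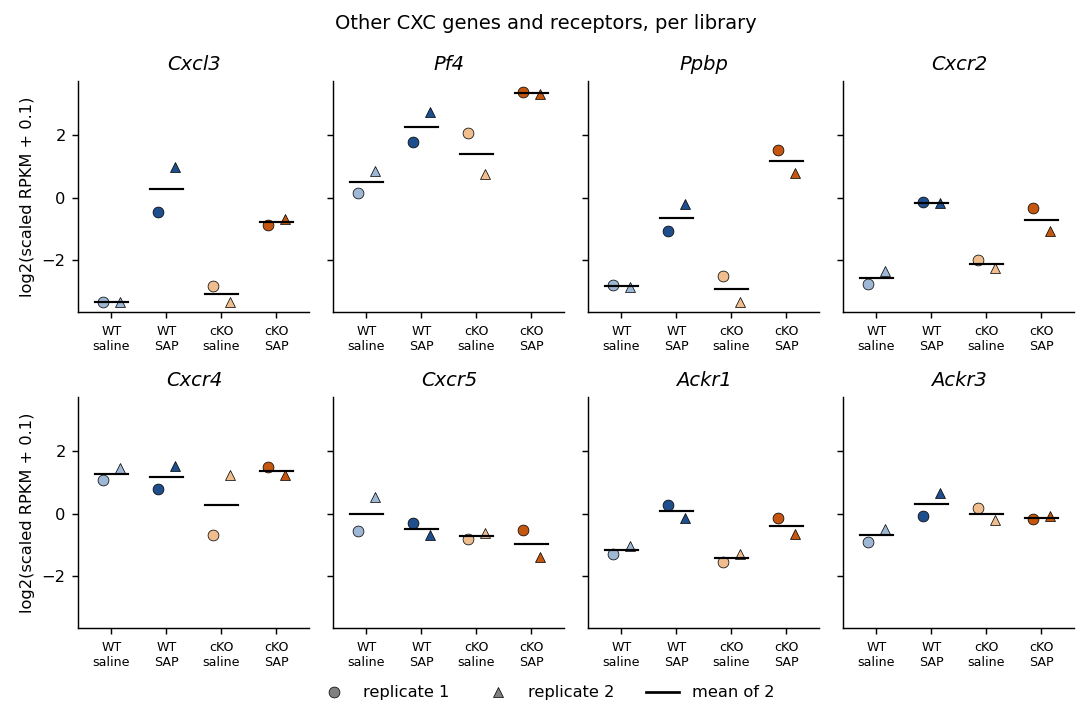
Level of *Cxcl3*, *Pf4*, and *Ppbp* and of 5 receptors in each library, as log2(scaled RPKM + 0.1); symbols are as in the plot of the 10 chemokine genes. In each genotype both FAEE-SAP libraries lay above both saline libraries for *Cxcl3* and *Cxcr2*, neither of which was tested in cKO, while *Pf4* and *Ppbp* were highest in the cKO FAEE-SAP libraries.

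Some genes that induce or regulate the ELR chemokines rose in WT. Their list also holds *Nfkbia* and *Tnfaip3*, which encode inhibitors of NF-κB signaling. Of 17 tested from a list of 19, 6 rose with FAEE-SAP, where 3.08% of all genes rose. The median log2 fold change was 0.85 against 0.02 over all genes, but 8 of the 17 did not reach the level for a test in both saline libraries, so the filter partly set the count and the median. Of the 9 that did reach it there, 4 rose, and *Il1a* and *Il1b* were the other 2 of the 6. The 4 with the smallest adjusted p were the adaptor *Myd88* (2.13, adjusted p = 0.00619, limma), the TNF receptor *Tnfrsf1a* (1.79, 0.0117), the cytokine *Il1b* (3.52, 0.0137), and the NF-κB subunit *Rela* (1.85, 0.0234). Between genotypes with FAEE-SAP, 1 of the 17 passed (1.27% of all genes passed), *Myd88*, which was lower in cKO (-1.74, adjusted p = 0.0317, limma), and the median was -0.71 against -0.01 over all genes, with 6 of the 17 below the level for a test in 1 or both cKO FAEE-SAP libraries. In cKO, 0 of 11 passed (limma; 1 at an unadjusted p under 0.05).

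Interferon-response genes did not pass. Of 14 tested from a list of 17, 0 passed in WT (median log2 fold change 0.13), 0 between genotypes with FAEE-SAP (median -0.24), and 0 of 10 in cKO (median 0.43), all by limma. At an unadjusted p under 0.05 there were 2, 1, and 1. Among genes that process or clear chemokines, 3 of 9 rose in WT, the proteases *Mmp8* (3.45, adjusted p = 0.00458, limma) and *Mmp9* (2.29, 0.0195), which neutrophils also make, and the ribonuclease gene *Zc3h12a* (1.64, 0.0231). None of these 3 reached the level for a test in both WT saline libraries, so their direction was partly set by the filter, and 3.08% of all genes rose. *Adam10*, the sheddase of CXCL16, had a log2 fold change of 0.09 in WT. None of the 9 passed between genotypes with FAEE-SAP (limma; 3 at an unadjusted p under 0.05).

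Neutrophil markers were read beside the ELR chemokines. Of 13 in the list, 8 were tested in WT and these 8 rose, but each reached the level for a test only with the WT FAEE-SAP libraries, so this count was largely set by the filter. In cKO 4 were tested and 0 passed (limma; 3 at an unadjusted p under 0.05), and between the saline groups 1 was tested. The summed level of all 13 was 1.66 to 2.72 scaled RPKM in WT saline, where *Ly6g*, *Elane*, and *Fpr1* were at 0, 59.2 to 63.5 in WT FAEE-SAP, where *Mpo* and *Elane* were at 0, 1.78 to 4.06 in cKO saline, where *Ly6g* was at 0, and 14.0 to 20.4 in cKO FAEE-SAP. Between genotypes with FAEE-SAP, 3 of the 8 were lower in cKO (0.409% of all genes were), *Fpr1* (-3.80, adjusted p = 0.0156, limma), *Retnlg* (-2.26, 0.0255), and *S100a8* (-2.32, 0.0302), of which *Fpr1* reached the level for a test in WT alone. *Cxcr2* and *Mmp8* are on this list as well. The part of neutrophils in the chemokine values was not tested.

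Macrophage markers summed to 79.2 to 97.5 scaled RPKM in WT saline, 87.9 to 115.8 in WT FAEE-SAP, 91.5 to 94.5 in cKO saline, and 117.9 to 135.5 in cKO FAEE-SAP, and 2 of 10 rose in WT (*Cd14* and *Fcgr1*, the latter tested only through the FAEE-SAP libraries), where 3.08% of all genes rose. The median log2 fold change of the 10 in WT was 0.04. In cKO 0 of 10 passed with FAEE-SAP, while all 10 were higher (limma; median 0.84). There 7 had an unadjusted p under 0.05, where 9.42% of all genes did. Between genotypes with FAEE-SAP, 1 of the 10 passed (1.27% of all genes did), *Cd14*, which was lower in cKO (-2.37, adjusted p = 0.0156, limma). Of the 10, 7 had higher and 3 lower values in cKO (median log2 fold change 0.55, and 6 at an unadjusted p under 0.05). Duct markers, read beside *Cxcl14* and *Cxcl17*, summed to 13.6 to 16.2 in WT saline, 36.7 to 38.3 in WT FAEE-SAP, 12.7 to 15.3 in cKO saline, and 18.5 to 22.8 in cKO FAEE-SAP. In WT, 1 of the 4 tested rose beside the same 3.08% of all genes, *Epcam* (2.16, adjusted p = 0.00357, limma), while *Cftr* was 0.143 and 0.114 with saline and 0.0194 and 0.0142 with FAEE-SAP. Lymphoid stroma and B cell markers, read beside *Cxcl13*, had 0 of 5 and 0 of 7 that passed in WT (limma; 0 and 1 at an unadjusted p under 0.05), and their summed levels in WT overlapped between saline and FAEE-SAP (31 to 65.0 and 28.7 to 39.4 for stroma, 13.6 to 26.0 and 15.7 to 19.5 for B cells). None of the T and NK cell, endothelial, or fibroblast markers tested passed in WT (0 of 7, 0 of 6, and 0 of 8, limma; 1, 0, and 0 at an unadjusted p under 0.05). The part of these cells in the chemokine values was not tested.

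The 9 acinar markers were abundant in every library, as the pancreas label says. Their summed level was 195909 to 228012 scaled RPKM in WT saline, 61206 to 63697 in WT FAEE-SAP, 263074 to 267313 in cKO saline, and 153659 to 169474 in cKO FAEE-SAP. All 9 fell in WT with FAEE-SAP, where 3.86% of all genes fell, and 5 were higher in cKO once both genotypes had FAEE-SAP, where 0.863% of all genes were. Islet markers, which belong to cells that the Cre also targets, summed to 271 to 320 in WT saline, 169.8 to 228 in WT FAEE-SAP, 289.7 to 358 in cKO saline, and 411 to 427 in cKO FAEE-SAP. Of these 6 hormone genes, 2 fell in WT with FAEE-SAP (3.86% of all genes fell), *Sst* (-1.48, adjusted p = 0.0326, limma) and *Gcg* (-1.0, 0.0344). Between genotypes with FAEE-SAP, 3 were higher in cKO (0.863% of all genes were), *Sst* (1.80, adjusted p = 0.0244, limma), *Gcg* (1.68, 0.0272), and *Iapp* (1.29, 0.0410). These acinar and islet values are scaled and so relative to the median gene. As deposited, the median log2 change of tested genes was 1.24 in WT with FAEE-SAP and -0.91 between genotypes with FAEE-SAP. The acinar and islet changes therefore depend on the scaling and can differ in size or direction as deposited. Mesothelial markers summed to 2.31 to 3.04 in WT saline, 1.11 to 1.18 in WT FAEE-SAP, 3.27 to 5.45 in cKO saline, and 1.56 to 4.42 in cKO FAEE-SAP, and none of those tested passed in any comparison (limma; 1 at an unadjusted p under 0.05, in cKO). The part of these cells in the chemokine values was not tested.

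**Figure D4:**
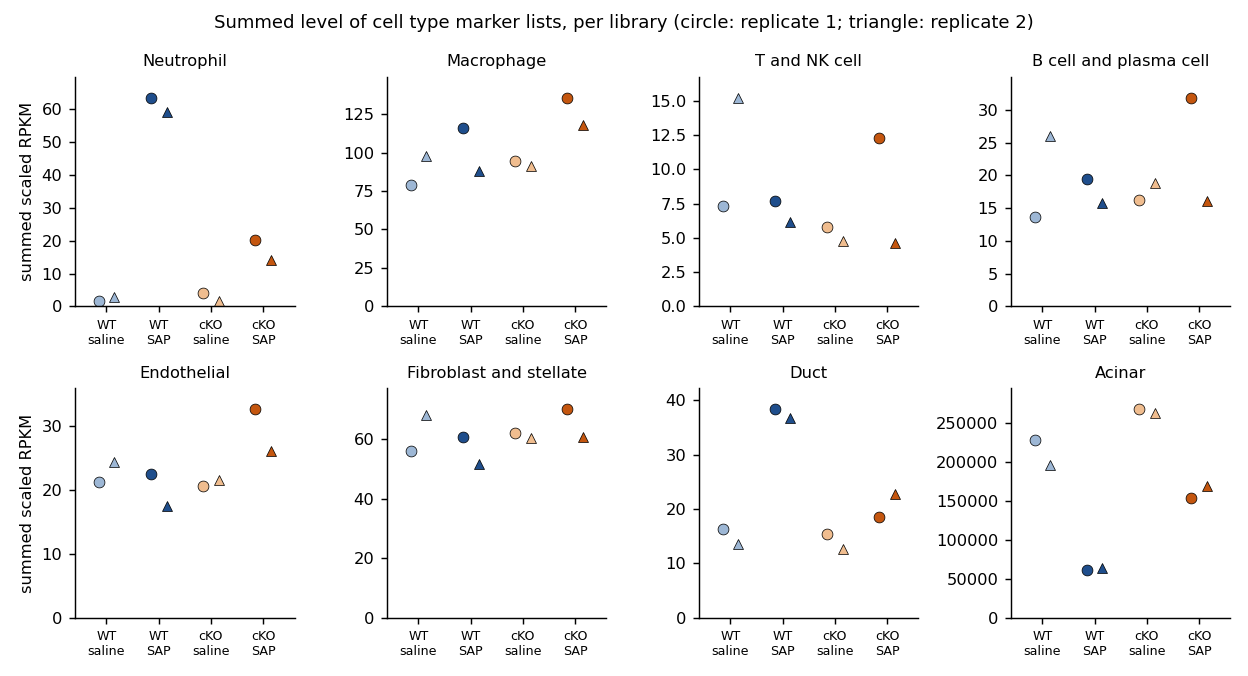
Summed scaled RPKM of 8 lists of cell type markers in each library, with a linear axis from 0 for each list. Neutrophil markers followed the order WT FAEE-SAP, cKO FAEE-SAP, and saline, acinar markers were lowest in WT FAEE-SAP, duct markers were highest there, and the lymphocyte lists spread within groups.

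The genes whose pattern over the 8 libraries was most like that of each member, by the correlation of log2(scaled RPKM + 0.1) among 11133 genes, are given as a description of 8 points that share 4 groups. For *Cxcl5* they were *Flot1* (r = 0.994), *Actn1* (0.993), and *Sdc1* (0.986). For *Cxcl2* they were *4930539E08Rik* (0.989), *Fam83e* (0.985), and *Fut2* (0.985), and for *Cxcl1* they were *Hsd3b7* (0.980), *Cpne8* (0.976), and *Bcl7c* (0.976). For *Cxcl17* they were *Lsm3* (0.995), *Med15* (0.995), and the epithelial keratin gene *Krt8* (0.995).

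Among the genes most like *Cxcl14* were *Cd33* (0.992) and *Cxcl3* (0.981). *Cxcl13* was most like *Ankrd54* (0.996), *Taf12* (0.981), and *Psma5* (0.980). *Cxcl16* was most like the complement gene *C3* (0.987), *Abcc5* (0.981), and the phagocyte oxidase gene *Cybb* (0.978). *Cxcl10* was most like *Nprl3* (0.969), *Slc7a7* (0.950), and *Plek* (0.945), and *Cxcl12* was most like *Unc119* (0.971), *Glipr2* (0.963), and *Eng* (0.963). No member was among the 3 genes most like another member.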

How the data were processed

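RNA from pancreatic tissue was made into directional libraries and sequenced as paired ends, filtered with fastp, and mapped to GRCm38 in CLC Genomics Workbench. The authors deposited RPKM per gene and library, and how it was computed is not given in the sources used here. GENCODE vM21 (GRCm38) gave exonic lengths for 46325 genes (95.1%). Library totals were taken from the steps of low RPKM, and 84.2% to 85.5% of values under 20 reads were whole within 0.1. Reads of the members were whole under 1 common length per gene and are approximate. RPKM was scaled by the median of ratios over the libraries compared and transformed as log2(scaled RPKM + 0.1). It was fitted with limma 3.58.1 (R 4.3.3) with an intensity trend. Benjamini-Hochberg adjustment was over all genes that reached 0.5 RPKM, as deposited, in 2 libraries. Levels were scaled over all 8 libraries. A gene was called at an adjusted p under 0.05 and 2-fold. The plan allowed for counts or normalized values, and the latter branch was used.

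The 10 genes and all lists were chosen with earlier results of these data known. All 10 are named in every comparison. From each list up to 4 genes with the smallest adjusted p were named, and the receptors in full, and other genes were chosen after their values were seen. The 3 most similar genes were named for each member with a group mean of at least 0.5 scaled RPKM, except 1 gene that is not reported here. Fits were tested on simulated data. Alternatives covered scaling, filter, pseudocount, trend, model, block, voom, thresholds, and leaving out each library. Leaving out a library with the genes of the full fit kept was added after seeing the data. Sequences come from RefSeq (GRCm38.p6). Python 3.11.15 was used for tables and figures.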

Additional observations from a re-analysis of the deposited data

How the results depend on the processing

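The number of members called was 6 in WT, 0 in cKO, 2 between genotypes with FAEE-SAP, 0 between genotypes with saline, and 0 in the interaction. With values as deposited it was 9, 1, 7, 0, and 5, and with an unadjusted p under 0.05 and at least a 2-fold change it was 6, 1, 5, 0, and 5, beside 12.4%, 2.97%, 8.39%, 0.677%, and 7.02% of all genes tested. The 2 between genotypes with FAEE-SAP became 1 with quantile normalization or without the trend, 0 with no filter, a pseudocount of 1, or voom, and 5 with all 8 libraries in 1 model, which also called 1 in cKO. Quantile normalization called 1 in the interaction. Leaving out 1 library gave 0 to 7 in WT, 0 to 2 between genotypes with FAEE-SAP, and 0 elsewhere.

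In WT, 1 member was called without WT FAEE-SAP replicate 1 and 0 without WT FAEE-SAP replicate 2, where *Cxcl1*, *Cxcl2*, *Cxcl5*, *Cxcl9*, *Cxcl14*, and *Cxcl17* fell below the filter because 1 library alone reached it. With the genes of the full fit kept, 4 were called without WT FAEE-SAP replicate 1 and 0 without replicate 2 (adjusted p 0.0536 to 0.0908 for the 6, limma), and the 6 log2 fold changes stayed between 1.61 and 6.21. Without either of those libraries, no member was called between genotypes with FAEE-SAP. Without cKO FAEE-SAP replicate 1, and with the genes of the full fit kept, 1 was called. The lone library of a group is assumed to vary like the others.

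With replicate number as a block, 6, 1, 5, 0, and 0 members were called, and 442 genes in all were called in WT, 52 in cKO, and 568 between genotypes with FAEE-SAP, against 755, 5, and 140 without the block. The numbers are not said to pair the mice, and deviations of same-numbered libraries correlated at -0.17 (WT), 0.40 (cKO), 0.30 (FAEE-SAP), and -0.32 (saline) across genes.

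Direction changed only in members that did not pass. As deposited, log2 fold changes were 0.54 for *Cxcl13* and 0.48 for *Cxcl16* in cKO, -0.74 for *Cxcl12* between genotypes with FAEE-SAP, and -0.26 for *Cxcl9* and -0.040 for *Cxcl12* in the interaction. *Cxcl16* between genotypes with saline was 0.027 with quantile normalization and 0.0026 with all 8 libraries. With a library left out, ranges were -0.080 to 0.71 (*Cxcl12*) and -0.13 to 1.33 (*Cxcl16*) in WT, -0.21 to 0.13 (*Cxcl13*) and -0.68 to 0.63 (*Cxcl16*) in cKO, -0.58 to 0.96 (*Cxcl12*) and -1.28 to 0.56 (*Cxcl9*) between genotypes with FAEE-SAP, -0.73 to 0.67 (*Cxcl16*) with saline, and -0.33 to 1.38 (*Cxcl9*), -0.15 to 1.40 (*Cxcl12*), and -1.39 to 0.038 (*Cxcl16*) in the interaction. Causes were not tested.

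As deposited, all genes called split as 7184 higher and 86 lower in WT (335 and 420 scaled), and 73 and 4354 between genotypes with FAEE-SAP (95 and 45 scaled, 43 and 37 with quantile normalization). The shift of all genes as deposited was -0.91 in the latter. Genes called with no filter were 269 in WT and 0 in cKO, between genotypes with FAEE-SAP, and in the interaction. Between genotypes with FAEE-SAP they were 57 without the trend and 295 with all 8 libraries in 1 model, and in the interaction, where 8 were called, 35 with a minimum of 2 RPKM, 24 with a pseudocount of 1, 1 with 0.01, and 0 with the block. Reads of 0 to 7 limit *Cxcl1*, *Cxcl2*, and *Cxcl17* in the saline and cKO libraries.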
